A study of Homo sapiens with 12 samples.

Results

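The 8 genes that encode the subunits of the chaperonin TRiC/CCT, TCP1, CCT2, CCT3, CCT4, CCT5, CCT6A, CCT7 and CCT8, were taken by gene name from the deposited table, in which each name matched 1 of 58884 rows. RNA was sequenced from HCC-LM3 and Huh-7 cells, established human liver cancer lines, each as wild type and with METTL5 knocked out, in 3 libraries per group and 12 in all. Wild-type cells were labelled as untreated and knockout cells as treated with a guide RNA against METTL5, which encodes an adenosine methyltransferase of 18S ribosomal RNA. The design text names the comparison of the 2 genotypes. The labels name no control guide and no clone, so loss of METTL5 cannot be told apart from the guide treatment or from the growth of a clone. They number the libraries of a group without saying that these came from separate cultures, so p-values measure the spread between libraries, which may be technical.

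TRiC is a cytosolic machine of stacked rings in which every ring holds each of the 8 related subunits once, in a fixed order. It closes over a bound chain when its subunits hydrolyse ATP, and it is needed to fold actin, the tubulins and many proteins built of WD40 repeats. The subunits differ in their affinity for ATP. CCT4 (delta), CCT2 (beta), CCT5 (epsilon) and CCT7 (eta) form the side of the ring with the higher affinity, and CCT3 (gamma), TCP1 (alpha), CCT6A (zeta) and CCT8 (theta) the side with the lower. Prefoldin hands unfolded actin and tubulin chains to the chaperonin, and phosducin-like proteins act on it as cochaperones. Tumour cells, which make much protein, often hold more TRiC than their tissue of origin.

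All 8 subunits carry a conserved run of glycine, aspartate, glycine and threonine in the nucleotide-binding domain. The stretch of coding sequence around it is shown because the 8 messages differ in base composition, and the changes are set against that composition further on. Each window holds 60 bases of the reference transcript of GENCODE 29 (GRCh38), 5′ to 3′ on the coding strand, and the capitals mark the 4 codons of the motif.
CCT4: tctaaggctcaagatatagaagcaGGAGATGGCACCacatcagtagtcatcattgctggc
CCT2: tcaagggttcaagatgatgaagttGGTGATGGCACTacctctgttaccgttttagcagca
CCT5: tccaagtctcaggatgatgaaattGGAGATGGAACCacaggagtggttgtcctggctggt
CCT7: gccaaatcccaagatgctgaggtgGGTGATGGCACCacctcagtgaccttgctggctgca
CCT3: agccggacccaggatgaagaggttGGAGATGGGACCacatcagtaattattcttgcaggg
TCP1: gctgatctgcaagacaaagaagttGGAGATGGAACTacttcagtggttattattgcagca
CCT6A: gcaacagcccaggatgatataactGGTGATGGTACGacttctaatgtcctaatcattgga
CCT8: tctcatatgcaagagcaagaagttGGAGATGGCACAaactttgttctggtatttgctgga
The GC content of these windows ran from 41.7% in TCP1 and CCT8 to 58.3% in CCT7. Over the whole principal transcript it was 51.8% in CCT7 and 51.2% in CCT3, against 43.1% to 44.7% in the other 6. The share of G or C at the third codon position, the one that least often changes the amino acid, was 57.8% in CCT7 and 56.7% in CCT3. It was 50.5% in CCT5, 42.2% in CCT6A, 38.4% in CCT4, 34.0% in TCP1, 33.3% in CCT2 and 31.8% in CCT8. The printed bases lie within coding exons at chr2:61880323-61880382, chr12:69587935-69587994, chr5:10254790-10255965, chr2:73240523-73243042, chr1:156325085-156333601, chr6:159785983-159787787, chr7:56054408-56054467 and chr21:29067610-29067669, in the order shown. The windows of CCT5, CCT7, CCT3 and TCP1 span an intron, which is left out of the printed run.

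The genes sit on 7 chromosomes in GRCh38, with CCT4 (ENSG00000115484) at chr2:61868089-61888804 on the minus strand, CCT7 (ENSG00000135624) at chr2:73233420-73253021 on the plus strand, CCT2 (ENSG00000166226) at chr12:69585334-69601570 on the plus strand and CCT5 (ENSG00000150753) at chr5:10249921-10266412 on the plus strand. The other 4 are CCT3 (ENSG00000163468) at chr1:156308968-156367873 on the minus strand, TCP1 (ENSG00000120438) at chr6:159778498-159789749 on the minus strand, CCT6A (ENSG00000146731) at chr7:56051630-56063989 on the plus strand and CCT8 (ENSG00000156261) at chr21:29055805-29073797 on the minus strand. CCT4 and CCT7 share chromosome 2 but are not neighbours.

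Libraries held 17495280 to 26415554 deposited counts. METTL5 had 268, 327 and 325 counts in wild-type HCC-LM3, 237, 258 and 169 in wild-type Huh-7, and 0 in all 6 knockout libraries, where a count of 0 allows up to 3. Of 10 hepatocyte markers, all 10 reached 1 TPM in Huh-7, with a summed level of 11960 to 15690 TPM. In HCC-LM3 only HNF4A did, the sum was 12.3 to 16.6 TPM, and APOB, APOH and TTR were at 0 in all 6 libraries, so the liver label of HCC-LM3 was not borne out by these markers. Fibroblast markers summed to 17.8 to 20.0 TPM in wild-type and 12.4 to 14.0 in knockout HCC-LM3, and to 8.14 to 8.34 and 0.78 to 2.04 in Huh-7. Endothelial markers stayed at 0.28 to 2.64 TPM, and leukocyte markers at 23.1 to 55.8, most of it CD68. The part of such cells in the results was not tested. The Huh-7 knockout libraries stood apart. Their TMM factors, which correct a library's total for its composition, were 0.491 to 0.510, against 1.06 to 1.51 in the other 9. The mean GC content of the transcripts counted was 56.0% to 56.2% there and 55.0% to 55.4% in wild-type Huh-7, and it was 53.9% to 54.0% in knockout and 52.8% to 53.4% in wild-type HCC-LM3. Wild-type HCC-LM3 replicate 1 differed from its 2 partners by 31.8 to 38.6 times the counting noise, while those partners differed by 4.25.

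All 8 subunit genes were detected in all 12 libraries and passed the filter on low counts. The lowest counts were the 73 to 101 of CCT8 in knockout Huh-7. Levels are given as TMM-scaled CPM, counts relative to library size, for 1 gene across libraries, and as deposited TPM, which is per length, between genes. Where groups are said not to overlap in CPM, this describes the libraries only. The share of all tested genes without overlap in CPM was not counted. In bulk RNA, fewer cells of a type and less RNA per cell cannot be told apart.

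In wild-type HCC-LM3 3 subunits stood above the others. By mean TPM the order was CCT5 at 550.2, CCT3 at 521 and CCT7 at 516, whose ranges over libraries overlapped, and then CCT8 at 180.0, CCT6A at 177, CCT4 at 171, CCT2 at 155 and TCP1 at 145, each overlapping the next. CCT7 and CCT8, on either side of the gap, did not overlap. In wild-type Huh-7 the order was CCT7 at 372, CCT3 at 299, CCT2 at 49.1, TCP1 at 46.6, CCT5 at 45.0, CCT6A at 41.6, CCT4 at 35.4 and CCT8 at 23.2 TPM. CCT7 and CCT3 overlapped neither each other nor the rest, CCT2 to CCT4 overlapped from one to the next, and CCT8 lay below all. Per base of 1 fixed gene length CCT5 came after CCT3 and CCT7 in wild-type HCC-LM3, with 17.3% to 18.1% of the sum of the 8 against 23.0% to 25.2% and 21.0% to 24.1%, so its place at the top holds in the deposited TPM only. In wild-type Huh-7 it lay among the lower 6 in TPM. The 8 levels summed to 2263, 2501 and 2481 TPM in wild-type HCC-LM3 and to 920.5, 971 and 845 TPM in wild-type Huh-7.

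**Figure D1:**
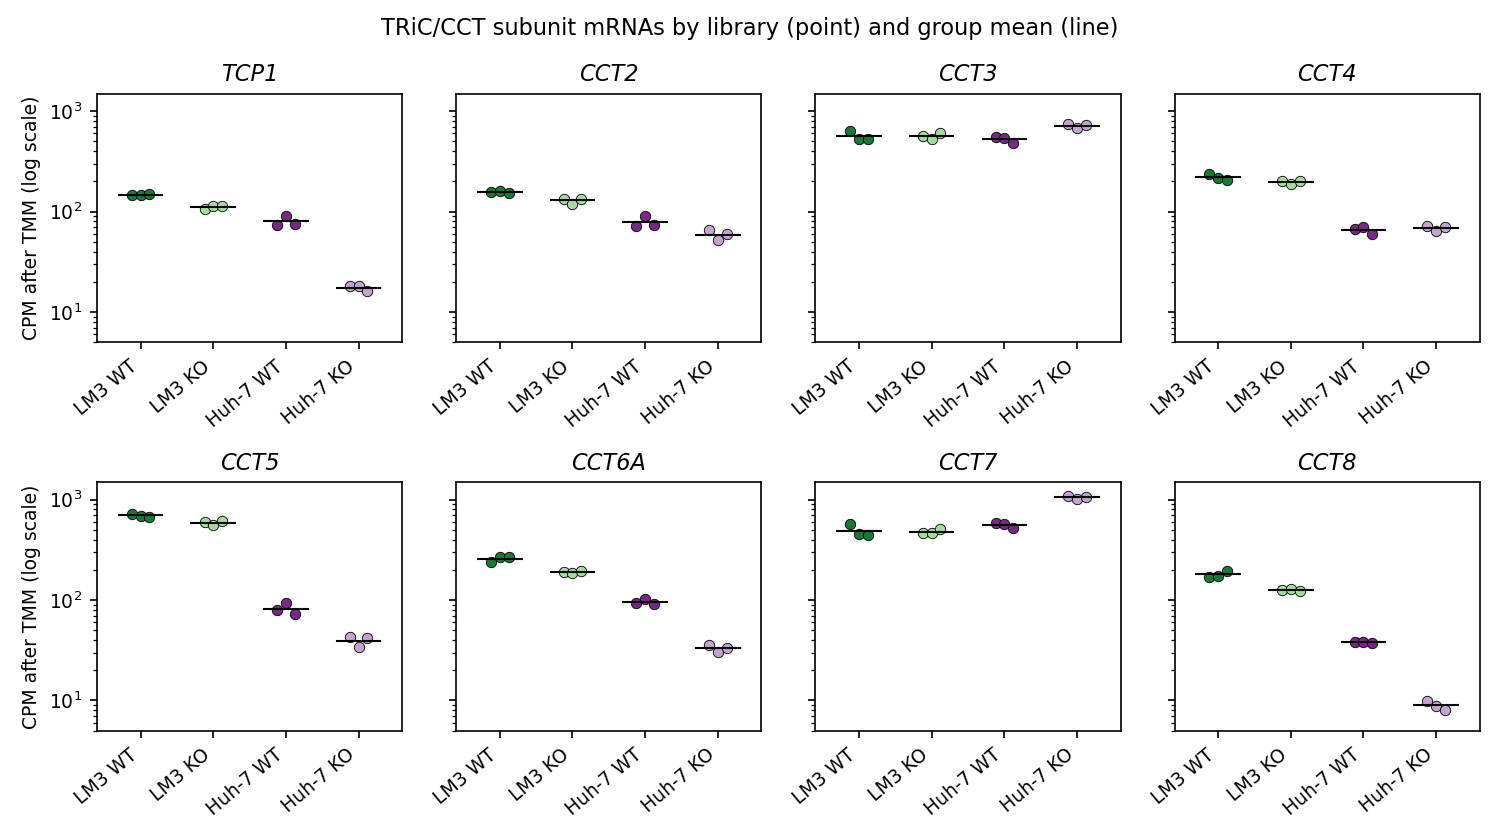
Levels of the 8 subunit mRNAs in 12 libraries, in TMM-scaled CPM on a log axis, with HCC-LM3 shortened to LM3, wild type to WT and knockout to KO. Points are libraries and lines are group means: CCT5 averaged 699.8 in wild-type HCC-LM3 and 81.6 in wild-type Huh-7, and TCP1 and CCT8 were lowest in knockout Huh-7.

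The comparison of the wild-type lines addresses how the complex differs between the 2 backgrounds. Of the 8 subunit genes 6 were higher in HCC-LM3, where 41.8% of all tested genes were called higher and 82.8% in either direction (edgeR quasi-likelihood test, Benjamini-Hochberg adjusted p under 0.05 over 16537 genes). None was called lower, where 41.0% of all tested genes were, and none had an unadjusted p under 0.05 in that direction, so both counts were 0, whereas DESeq2 and limma-voom each called 1, CCT7. The median log2 difference was 1.21 over the 8 and 0.03 over all tested genes. On the side of higher ATP affinity, CCT5, a subunit that can form rings by itself when made alone, had 726, 694 and 679 CPM in HCC-LM3, against 80.1, 92.6 and 72.1 for Huh-7. Its groups lay far apart, 8.57-fold (log2 3.10 ± 0.11, adjusted p = 3.41e-23, where ± gives 1 SE here and below). CCT4 had 236, 218 and 205 against 67.8, 70.3 and 60.1 CPM. That was 3.32-fold higher without overlap (log2 1.73 ± 0.09, adjusted p = 7.85e-18). CCT2, which also serves as a receptor in the autophagy of protein aggregates, had 155, 161 and 154 against 71.1, 90.9 and 72.8 CPM, again without overlap (log2 1.00 ± 0.10, adjusted p = 6.40e-11). CCT7 had 566, 453 and 447 against 579, 567 and 518 CPM, with overlapping groups (log2 -0.18 ± 0.10, adjusted p = 0.092), and 0.23 with library totals alone. On the side of lower affinity, CCT8 had 169.7, 176 and 197 CPM in HCC-LM3 against 38.3, 38.0 and 37.2 in Huh-7, 4.77-fold higher (log2 2.25 ± 0.09, adjusted p = 3.12e-21). CCT6A, the ubiquitous form of the zeta subunit, had 239, 270.4 and 266 against 93.0, 104 and 91.1 CPM (log2 1.43 ± 0.09, adjusted p = 8.33e-16). TCP1, the founding subunit, had 145, 145 and 149 against 74.0, 91.0 and 75.8 CPM (log2 0.87 ± 0.09, adjusted p = 1.81e-10). None of these 3 overlapped between lines. CCT3 had 635, 534 and 522 against 551, 538 and 482 CPM, with overlapping groups (log2 0.11 ± 0.10, adjusted p = 0.319). Its value was 0.52 with library totals alone and 0.80 on the TPM scale, both called. With library totals alone all 8 members were called higher in HCC-LM3, beside 51.0% of all tested genes. The 6 genes called higher under TMM are those of low GC content, and all 6 stayed higher under each of 22 alternatives. The 1015 tested genes above 42% and up to 46% GC with a deposited length of 1500 to 3500 bases had a median log2 difference of 0.74. Their quartiles were -0.42 to 1.56. TCP1, CCT2 and CCT6A lay within these quartiles, and CCT4, CCT5 and CCT8 above. With offsets fitted per library for GC content and for length their log2 differences were 2.27 for CCT5, 1.68 for CCT8, 1.02 for CCT4, 0.70 for CCT6A, 0.38 for CCT2 and 0.19 for TCP1.

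Knockout in HCC-LM3 was compared with wild type for the effect of METTL5 loss in that line. By the same test 4 of the 8 subunit genes fell, CCT8, CCT6A, TCP1 and CCT2, by 1.42-, 1.37-, 1.32- and 1.21-fold, beside 12.9% of all tested genes called lower and 26.8% in either direction. The number called higher was 0 by edgeR, DESeq2 and limma-voom alike, and 0 had an unadjusted p under 0.05 in that direction. The median log2 change was -0.26 over the 8 and 0.00 over all tested genes. On the side of lower ATP affinity, CCT8 had 169.7, 176 and 197 CPM in wild type and 127, 130.3 and 123 in knockout (log2 change -0.51 ± 0.09, adjusted p = 7.07e-05). CCT6A had 239, 270.4 and 266 CPM and then 189, 184 and 193 (log2 change -0.45 ± 0.09, adjusted p = 3.76e-04). TCP1 had 145, 145 and 149 CPM and then 106, 113 and 114 (log2 change -0.40 ± 0.09, adjusted p = 0.00135). In all 3 every knockout library lay below every wild-type one. CCT3, the last of this side, had 635, 534 and 522 CPM in wild type and 569.7, 534 and 604 in knockout, with overlapping groups (log2 change 0.01 ± 0.10, adjusted p = 0.968). On the side of higher affinity, CCT2 had 155, 161 and 154 CPM in wild type and 135, 120.0 and 134 in knockout, without overlap (log2 change -0.27 ± 0.10, adjusted p = 0.0391). CCT5 had 726, 694 and 679 against 599, 561 and 611 CPM. It did not overlap either but missed the threshold (log2 change -0.25 ± 0.10, adjusted p = 0.0666). CCT4 had 236, 218 and 205 against 201, 187 and 204 CPM, without overlap and not called (log2 change -0.16 ± 0.09, adjusted p = 0.216). CCT7 had 566, 453 and 447 against 468, 464 and 512 CPM and overlapped (log2 change -0.02 ± 0.10, adjusted p = 0.925). The falls of CCT8 and CCT6A passed the threshold in all 23 alternatives. That of TCP1 passed in 21, missing it with the GC and length offsets with and without the replicate block (adjusted p = 0.0688 and 0.0569, range over its alternatives 0.000233 to 0.0688), and that of CCT2 in 13. CCT2 lost its call without any 1 of wild-type replicates 2 and 3, the 3 knockout libraries and knockout Huh-7 replicate 3, with log2 changes of -0.31 to -0.23. It also lost it with DESeq2 size factors (-0.25, adjusted p = 0.0648), by the DESeq2 Wald test (-0.25, adjusted p = 0.0544) and with GC and length offsets (-0.05, adjusted p = 0.668, and 0.6996 with the replicate block), where the range over its alternatives was 0.00489 to 0.6996.

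Knockout in Huh-7 was the comparison with the wider range. As log2 changes minus the median of all tested genes, CCT7 stood at 1.23, CCT3 at 0.75, CCT4 at 0.36, CCT2 at -0.11, CCT5 at -0.75, CCT6A at -1.22, CCT8 at -1.78 and TCP1 at -1.90 under TMM, the scaling used unless another is named. With GC and length offsets these were 0.52, 0.21, 0.79, 0.09, 0.15, -0.62, -1.54 and -1.39 in the same order of genes, so CCT2 and CCT5 changed side. That median was itself -0.30 under TMM, 0.00 with DESeq2 size factors and -1.40 with library totals alone, and the sign of several members moved with it. Under TMM 5 members fell and 2 rose, beside 43.2% of all tested genes called lower, 31.7% higher and 75.0% in either direction, so most members were called in a comparison in which most genes were. With library totals alone all 8 fell, beside 65.3% of all tested genes lower and 12.1% higher. With DESeq2 size factors 4 fell and 3 rose, beside 35.4% lower and 39.4% higher. With GC and length offsets 3 fell and 3 rose, beside 28.3% lower and 29.4% higher. The share of all calls that were higher was 42.3% under TMM, 52.7% with size factors, 15.6% with library totals and 50.9% with the offsets. In HCC-LM3 it was 52.0% under TMM and 25.9% with library totals, which moved that median from 0.00 to -0.12 and gave 6 members lower in place of 4, beside 20.7% of all tested genes in place of 12.9%.

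The members that fell under every one of the 23 alternatives in Huh-7 were TCP1, CCT8 and CCT6A, all of the side with lower ATP affinity. TCP1 had 74.0, 91.0 and 75.8 CPM in wild type and 17.9, 18.2 and 16.3 in knockout. Its knockout libraries lay 4.59-fold below wild type with a wide gap (log2 change -2.20 ± 0.11, adjusted p = 2.16e-18, range over alternatives -3.63 to -1.40). CCT8 had 38.3, 38.0 and 37.2 CPM in wild type and 9.96, 8.86 and 8.02 in knockout. That was 4.22-fold lower without overlap (log2 change -2.08 ± 0.12, adjusted p = 5.10e-17, range -3.19 to -1.55). CCT6A had 93.0, 104 and 91.1 CPM in wild type and 36.1, 30.6 and 33.2 in knockout. It was 2.87-fold lower without overlap (log2 change -1.52 ± 0.10, adjusted p = 3.12e-15, range -3.04 to -0.63). CCT3, the remaining subunit of that side and much studied in liver cancer, had 551, 538 and 482 CPM in wild type and 751, 682 and 722 in knockout. It rose under TMM (log2 change 0.46 ± 0.10, adjusted p = 1.28e-04), without overlap, and fell with library totals alone (-0.66) and on the TPM scale (-1.06).

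On the side of higher affinity the directions differed. CCT7 had 579, 567 and 518 CPM in wild-type and 1081, 1018 and 1071 in knockout Huh-7. It rose 1.90-fold under TMM without overlap (log2 change 0.93 ± 0.10, adjusted p = 6.00e-10), and fell with library totals alone (-0.18) and on the TPM scale (-0.68). CCT5 had 80.1, 92.6 and 72.1 CPM in wild type and 42.7, 34.0 and 41.4 in knockout. It fell 2.07-fold under TMM without overlap (log2 change -1.05 ± 0.11, adjusted p = 2.56e-10), while with GC and length offsets the value was 0.14 and not called (adjusted p = 0.146, range over alternatives 3.09e-24 to 0.154). CCT2 had 71.1, 90.9 and 72.8 CPM in wild type and 66.0, 51.6 and 59.1 in knockout. It fell under TMM without overlap (log2 change -0.41 ± 0.11, adjusted p = 8.36e-04), and its value was 0.03 with DESeq2 size factors and 0.08 with the offsets. CCT4 had 67.8, 70.3 and 60.1 CPM in wild type and 72.5, 64.7 and 69.9 in knockout, with overlapping groups (log2 change 0.06 ± 0.10, adjusted p = 0.568). Its value was -1.05 with library totals alone and 0.78 with the offsets, both called.

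**Figure D2:**
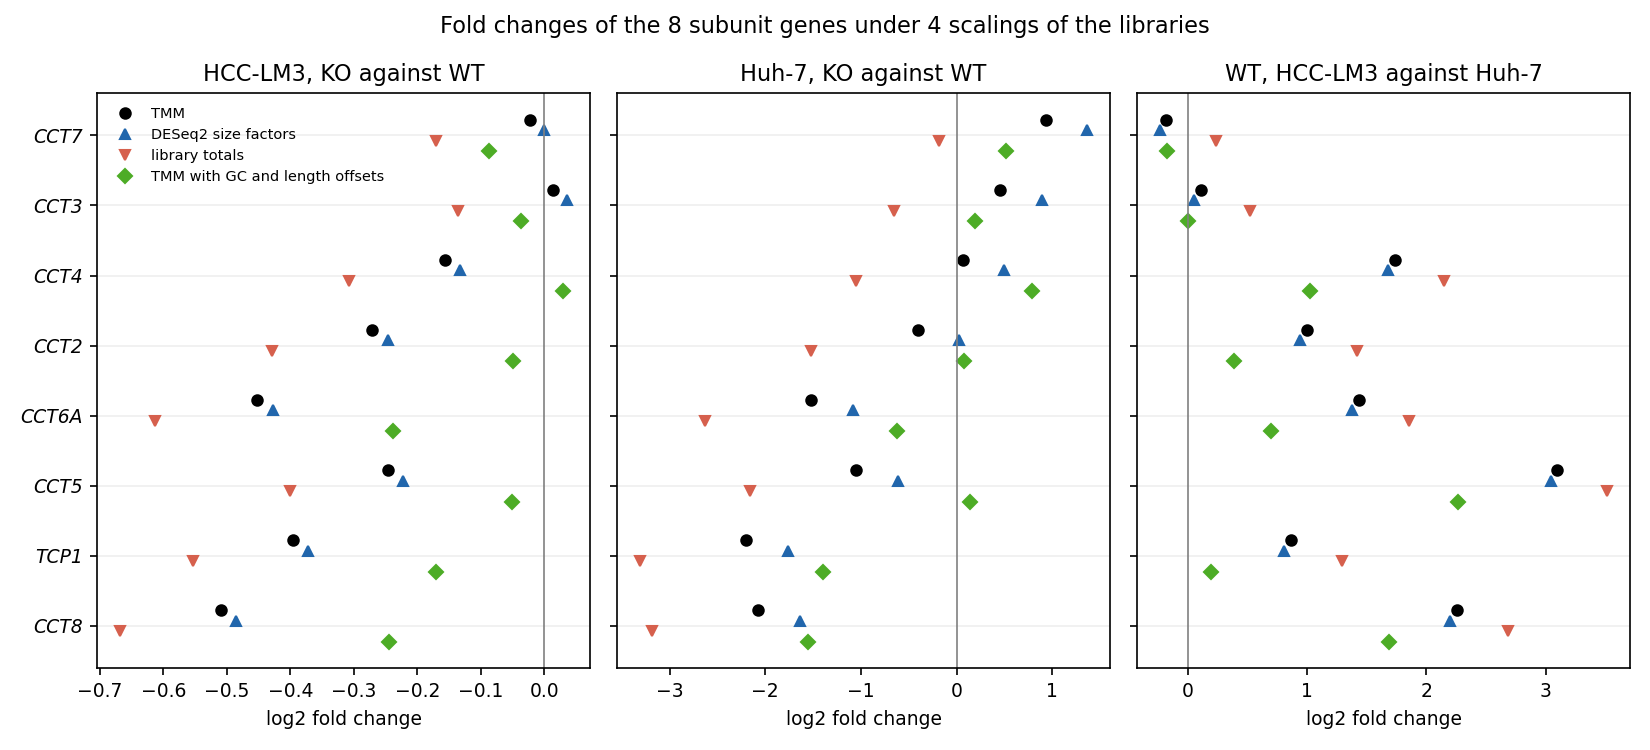
Log2 fold changes of the 8 subunit genes (rows) in 3 comparisons under 4 scalings of the libraries, with 1 symbol per scaling and a different x scale in each panel. In Huh-7 TCP1, CCT8 and CCT6A lay below 0 under all 4 scalings, while CCT7 and CCT3 lay above 0 except with library totals alone and CCT2, CCT4 and CCT5 changed sign with the scaling.

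A ratio between subunits of the same library does not depend on a factor that scales the whole library. Each gene's count per base of its deposited length was therefore set against the geometric mean of the 8 in that library, on the log2 scale. The GC and length offsets differ between genes, so they would change this measure, and they were not applied to it. In Huh-7 no member's wild-type and knockout values overlapped, beside 74.0% of all tested genes whose values did not overlap on this measure. CCT7 stood at 2.60, 2.44 and 2.52 in wild type and 4.11, 4.21 and 4.21 in knockout, a mean difference of 1.66. CCT3 stood at 2.42, 2.27 and 2.32 and then 3.49, 3.53 and 3.54, a difference of 1.18. These 2 subunits, already the most abundant per base in Huh-7, moved further above the geometric mean of the 8. CCT4 differed by 0.79, from -0.86, -0.94 and -0.95 to -0.15, -0.13 and -0.09. CCT2 differed by 0.32, from -0.48, -0.25 and -0.36 to 0.03, -0.15 and -0.02. CCT5, the ring-forming epsilon subunit, differed by -0.32, and CCT6A by -0.80. CCT8 stood at -1.33, -1.46 and -1.29 in wild type and -2.66, -2.64 and -2.86 in knockout, a difference of -1.36. TCP1 stood at -0.72, -0.55 and -0.60 and then -2.15, -1.95 and -2.18, a difference of -1.47. The messages for TCP1 and CCT8 were thus the scarcest of the complex in knockout Huh-7. The geometric mean moves with every member, so a rise against it need not be a larger share of the sum. Of the summed counts per base in Huh-7, CCT7 made up 40.05% in wild type and 55.4% in knockout on average. CCT3 made up 35.3% and 35.2%, CCT2 5.44% and 2.97%, and CCT4 3.70% and 2.81%.

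In HCC-LM3 the same measure moved in smaller steps. It was higher in knockout by 0.27 for CCT3, 0.24 for CCT7 and 0.10 for CCT4, and its difference was -0.25 for CCT8, -0.20 for CCT6A and -0.14 for TCP1, without overlap of the libraries in these 6, beside 46.2% of all tested genes without overlap on this measure. CCT2 and CCT5 differed by -0.02 and 0.01 and overlapped. Wild-type HCC-LM3 replicate 1 lay nearest the knockout values for CCT7, at 1.22 against 0.96 and 0.94 in its partners and 1.24 to 1.32 in knockout. These are values of 3 libraries against 3, for which an exact permutation test cannot go below p = 0.1, so none was run.

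**Figure D3:**
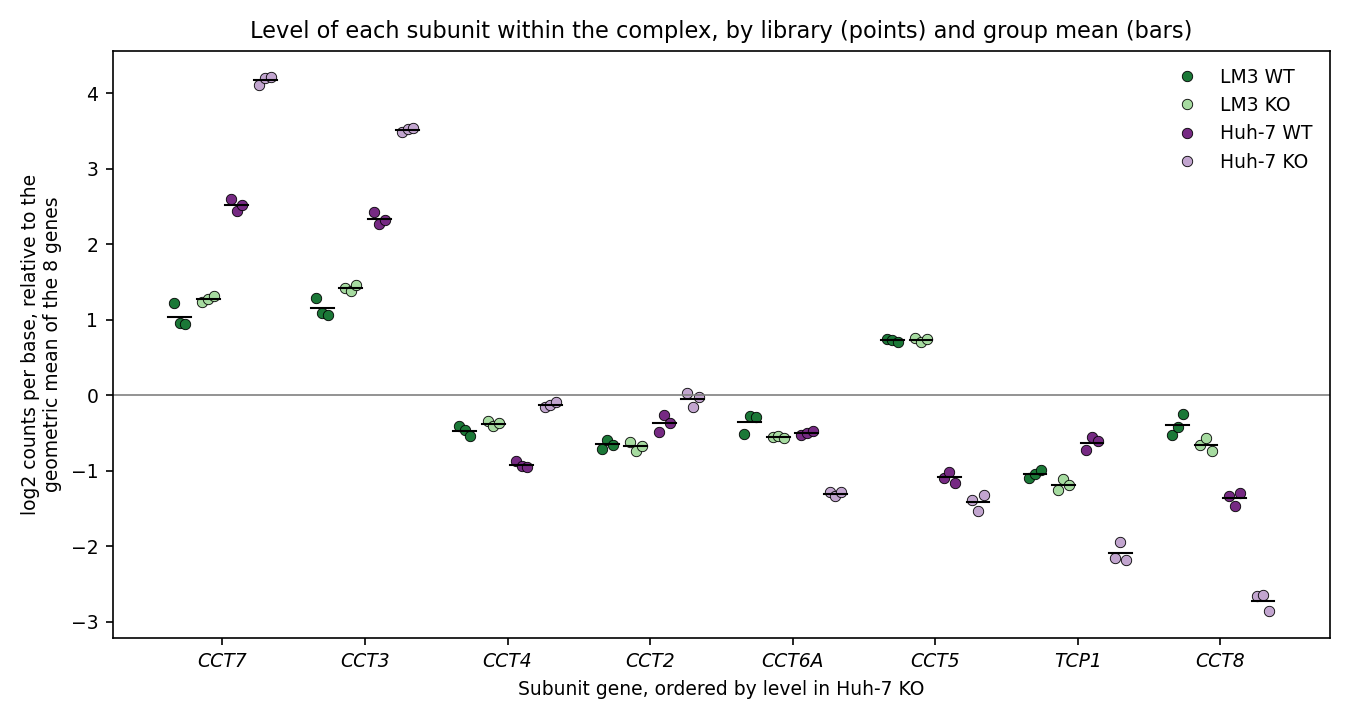
Level of each subunit within the complex, as log2 counts per base of deposited length relative to the geometric mean of the 8 genes of the same library. Points are libraries, black bars group means: in knockout Huh-7 CCT7 and CCT3 lay at 4.18 and 3.52 on average and CCT8 and TCP1 at -2.72 and -2.09.

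In deposited TPM the highest subunit exceeded the lowest 3.65 to 4.34 times in the wild-type and 4.46 to 5.13 times in the knockout libraries of HCC-LM3. In Huh-7 it exceeded the lowest 14.8 to 16.8 times in wild type and 81.5 to 109 times in knockout. CCT7 made up 40.4% to 41.3% of the summed TPM of the 8 in wild-type and 51.7% to 55.6% in knockout Huh-7, and TCP1 made up 4.57% to 5.59% and then 0.623% to 0.722%. The order in knockout Huh-7 was CCT7, CCT3, CCT4, CCT2, CCT5, CCT6A, TCP1 and CCT8, at 231, 143, 21.8, 19.8, 5.10, 4.19, 2.83 and 2.69 TPM, where CCT4 overlapped CCT2, CCT5 overlapped CCT6A and TCP1 overlapped CCT8. In knockout HCC-LM3 it was CCT3, CCT7, CCT5, CCT4, CCT6A, CCT2, CCT8 and TCP1, at 464, 447, 411, 139, 113, 112, 111 and 96.7 TPM, with overlap between CCT3 and CCT7 and among CCT6A, CCT2 and CCT8. The sum of the 8 was 1860 to 1929 TPM in knockout HCC-LM3, below the 2263 to 2501 of wild type. In Huh-7 it was 400.5 to 448 TPM in knockout, below the 845 to 971 of wild type. Under TMM CCT7 and CCT3, the highest members in Huh-7, rose there instead (log2 0.93 and 0.46). The sum was not computed under other scalings, so its fall in Huh-7 is given on the TPM scale only. The deposited TPM rests on a gene length that differs between libraries. Relative to CCT3, the length implied by count and TPM was 0.549 to 0.708 for CCT4 in knockout Huh-7 and 1.17 to 1.22 in wild-type HCC-LM3, so shares in TPM carry this change as well.

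The knockout effects of the 2 lines were compared by the interaction, the HCC-LM3 log2 change minus the Huh-7 log2 change, in which 61.6% of all tested genes were called, 37.7% higher and 23.9% lower. Of the 8 members 4 were called higher and 2 lower. TCP1 differed by 1.80 ± 0.14 (adjusted p = 5.16e-13). CCT8 differed by 1.57 ± 0.15 (adjusted p = 3.90e-11). CCT6A differed by 1.07 ± 0.14 (adjusted p = 2.22e-08). For these 3 subunits the fall was larger in Huh-7, and the difference was called in all 22 alternatives. CCT5 differed by 0.80 ± 0.15 (adjusted p = 1.81e-05), and the difference was -0.19 with GC and length offsets. CCT7 differed by -0.95 ± 0.14 (adjusted p = 5.95e-07) and CCT3 by -0.44 ± 0.14 (adjusted p = 0.00693), and both were positive with library totals alone (0.01 and 0.52). CCT2 differed by 0.14 ± 0.14 (adjusted p = 0.439) and CCT4 by -0.22 ± 0.13 (adjusted p = 0.156), neither past the threshold. The interaction uses the same 12 libraries as the 2 knockout comparisons, and the wild-type comparison shares its 6 libraries with them, so these are not independent results.

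The changes were set against the base composition of the messages. Across the 8 genes, which share the same libraries and are not independent replicates, Spearman's rho between transcript GC content and the knockout log2 change was 0.93 in HCC-LM3 and 0.93 in Huh-7, and Pearson's r was 0.86 and 0.81. In Huh-7 rho was 0.79 for the GC content of the coding sequence, 0.69 for that of the third codon position and -0.26 for coding length. Medians over all tested genes of a GC range differed as well. The 2563 tested genes with a GC content above 42% and up to 46%, the range of TCP1, CCT2, CCT4, CCT5, CCT6A and CCT8, had a median log2 change of -0.19 in HCC-LM3 and -1.34 in Huh-7. The 2151 genes above 50% and up to 54%, the range of CCT3 and CCT7, had medians of 0.08 and 0.00. Among genes of these GC ranges with a deposited length of 1500 to 3500 bases, where all 8 members lie, the medians in Huh-7 were -1.07 over 1015 genes and 0.15 over 917 genes, with quartiles of -1.88 to -0.01 and -0.58 to 0.90. TCP1 and CCT8 lay below the lower of these quartiles for their range, and CCT4 and CCT7 above the upper. With GC and length offsets fitted per library, the Huh-7 changes were -1.40 for TCP1, -1.55 for CCT8 and -0.63 for CCT6A, and 0.78 for CCT4, 0.51 for CCT7 and 0.20 for CCT3, all called. In HCC-LM3 they were -0.24 for CCT8 and -0.24 for CCT6A, both called, and -0.17 for TCP1 and -0.05 for CCT2, not called. The part of base composition in these changes was not tested.

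**Figure D4:**
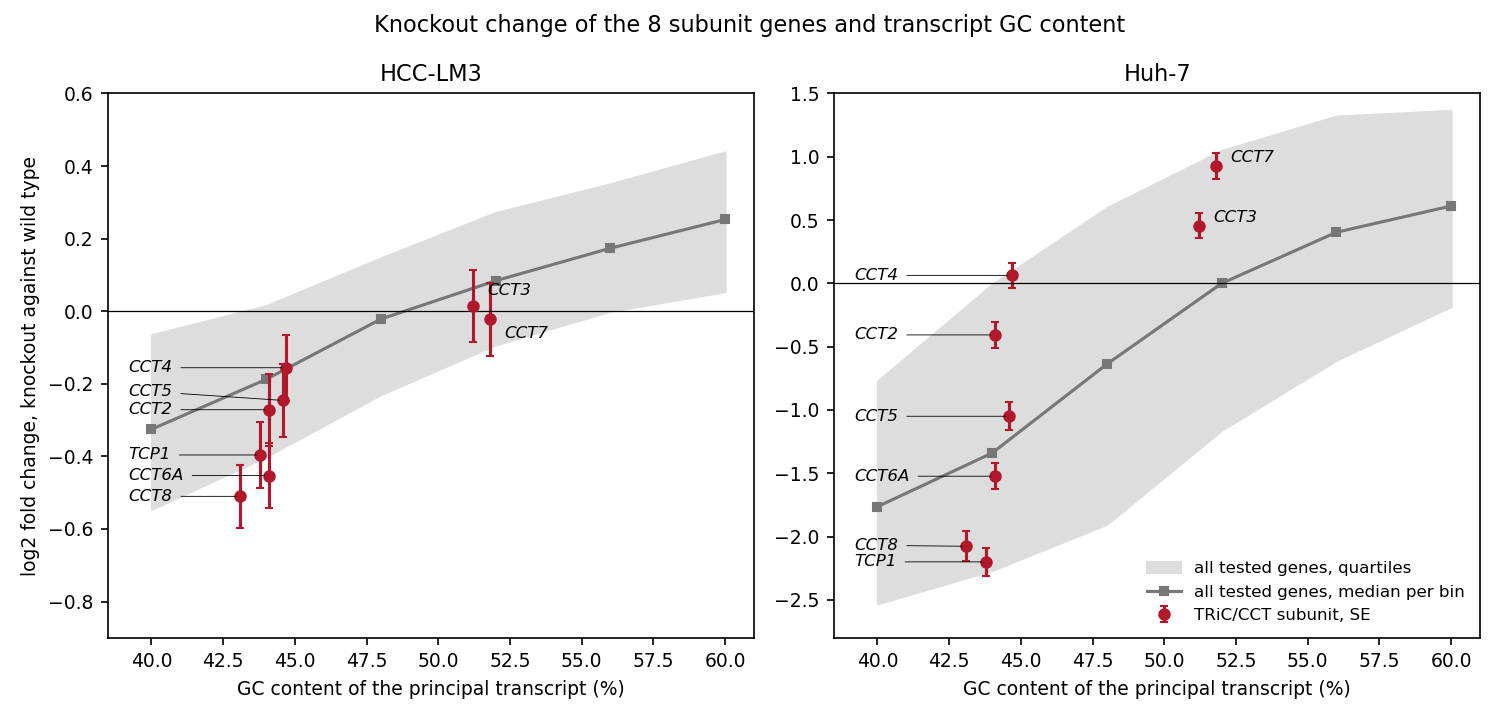
Knockout log2 fold change (TMM) of the 8 subunit genes against the GC content of the principal transcript, with bars of 1 SE, for HCC-LM3 and Huh-7 on different y scales. The grey line and band give the median and quartiles of all tested genes in bins of GC content: the 6 members below 45% lay lower than CCT3 and CCT7 in both lines, and in Huh-7 the height of all points relative to 0 changes with the scaling.

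Subunits of one complex might vary together. Over the 12 libraries, in TMM-scaled CPM, the members formed 2 sets, those of low GC content and CCT3 with CCT7. Correlations on this scale were positive within a set and negative between. They were not computed under other scalings, and with library totals alone CCT3 and CCT7 also fell in Huh-7 (log2 -0.66 and -0.18). Correlations between pairs of other genes were not computed, so whether the members vary together as a complex was not tested. Pearson's r of log2 CPM, over libraries that share depth and group, was 0.73 to 1.00 among the 6 members of low GC content in all 15 pairs. It was 0.87 between CCT3 and CCT7, and -0.97 to -0.24 between those 2 and the other 6. Within groups, after taking each group's mean away, r had a median of 0.38 over the 28 pairs and ran from -0.33 to 0.96, against a median of 0.86 over the 12 libraries. The highest value was between CCT3 and CCT7. In wild-type HCC-LM3 both stood highest in replicate 1. CCT3 had 635 CPM there against 534 and 522 in the partners, and CCT7 had 566 against 453 and 447. The part of this library in the values within groups was not tested. TCP1 had r of 0.03 to 0.47 and CCT8 of -0.33 to 0.45 with the other 7 within groups. By correlation with the mean log2 CPM of the 8 over 12 libraries, the closest of 9525 protein-coding genes were FAM192A (r = 1.00), PSMD6, LTA4H, ATP1B3, TSN and UTP11, whose transcripts have a GC content of 41.9% to 46.5%. By the deviations from group means they were CIAO2A (r = 0.96), GTF3A, NOL7, NAA20, PDHA1 and PDIA6, with 43.3% to 47.2%.

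Copies and neighbours of the members can share their reads, since the strand setting and the treatment of multiply mapped reads are not given. CCT6B, the testis form of the zeta subunit, had 3 to 8 counts in HCC-LM3, 20 to 24 in wild-type and 3 to 6 in knockout Huh-7. The pseudogenes CCT6P3 and CCT6P1 reached 131 and 51 counts at most, against at least 263 for CCT6A, and the other 11 pseudogenes of members stayed at 6 or fewer. In the annotation, 5 members have a protein-coding gene on the opposite strand starting within 1000 bases, and CCT2 starts 511 bases from the miRNA gene MIR3913-1. TCP1 starts 63 bases from MRPL18, CCT5 24 bases from FAM173B, CCT6A 26 bases from PSPH and CCT7 182 bases from PRADC1, and CCT4 and COMMD1 overlap by their first 80 bases. In Huh-7 under TMM, MRPL18 rose (log2 1.36 ± 0.11) where TCP1 fell, and COMMD1 (log2 1.30 ± 0.19) and PRADC1 (log2 2.28 ± 0.10) rose as well, each positive in all 4 scalings. In HCC-LM3 MRPL18 was lower in knockout, as TCP1 was. It had 54.9, 44.3 and 44.0 CPM in wild type and 34.9, 35.3 and 39.9 in knockout, without overlap. The groups of COMMD1 and PRADC1 overlapped in HCC-LM3. FAM173B fell in both lines (log2 -0.47 and -1.79), without a call in either with GC and length offsets. PSPH was not called in either line. TCP1 overlaps the end of ACAT2 on the opposite strand and CCT3 overlaps TSACC, so their counts are uncertain to that extent, and antisense transcripts overlap CCT4 and CCT5. TCP1 and CCT6A each host 2 snoRNAs in the annotation, and CCT8 holds a sense intronic transcript.

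Next came the partners that work upstream of the ring. Prefoldin, the hexamer that delivers actin and tubulin, had 3 of 6 genes called lower in HCC-LM3, VBP1 (-0.57 ± 0.12), PFDN4 (-0.42 ± 0.13) and PFDN2 (-0.31 ± 0.11). PFDN1 (-0.19), PFDN5 (0.07) and PFDN6 (-0.16) did not pass. With GC and length offsets only PFDN2 (-0.43) of the 6 remained called. In Huh-7 PFDN5 (log2 2.06 ± 0.11), PFDN6 (1.59), PFDN2 (1.28), PFDN4 (0.82) and PFDN1 (0.67) rose and VBP1 (-1.0) fell under TMM. With library totals alone 2 of the 6 rose and 2 fell, and with GC and length offsets 3 rose and 2 fell, so PFDN1, PFDN2 and PFDN4 changed sign with the scaling. The median over the 6 was 1.05 in Huh-7 and -0.25 in HCC-LM3, beside -0.30 and 0.00 over all tested genes. Of the 3 phosducin-like genes tested, TXNDC9 (-0.62) and PDCL3 (-0.50) fell in HCC-LM3, of which PDCL3 remained called with the offsets, and PDCL fell in Huh-7 under TMM (log2 -0.67), where the value was 0.65 with the offsets. Among 9 genes of the R2TP and prefoldin-like assembly, 2 rose in HCC-LM3, led by PIH1D1 (0.50), and RPAP3 (-0.74) and URI1 (-0.55) fell. With the offsets PIH1D1 (0.34) was the 1 gene of the 9 still called there. In Huh-7 6 rose, led by UXT (2.09), and 3 fell, among them URI1 (-1.74) and RPAP3 (-1.73, 0.15 with the offsets). With library totals alone 4 of these 9 rose and 4 fell, and with the offsets 3 rose and 2 fell, and the median moved from 1.20 to 0.09 and 0.11.

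The genes of folding clients formed the next group. The shares of all tested genes given for the subunit genes stand beside these counts and those of the upstream partners as well. With DESeq2 size factors in Huh-7 they were 35.4% lower and 39.4% higher. Of 12 tubulin genes 11 rose in Huh-7 under TMM, beside 31.7% of all tested genes higher, among them TUBA1A (1.91), TUBB3 (1.68) and TUBA1B (1.44), 10 with GC and length offsets and 6 with library totals alone. In HCC-LM3 TUBA1A (0.54) and TUBB3 (0.34) rose and 10 did not pass, and TUBB3 lost its call with the offsets (0.07). Tubulin genes have near-identical copies, so the split of reads among them is uncertain. Of 6 actin and actin-related genes, ACTR2 (log2 -0.49 and -2.75) and ACTR3 (-0.46 and -2.09), the core of the Arp2/3 complex that branches actin filaments, fell in HCC-LM3 and Huh-7 under TMM. With the offsets neither was called in HCC-LM3, and in Huh-7 ACTR3 had a value of 0.21. ACTB, which encodes beta-actin, a major client, was added after its values were seen. ACTB and ACTG1 did not pass in HCC-LM3 and rose in Huh-7 under TMM (0.37 and 0.78), with values of -0.74 and -0.33 under library totals alone, and ACTB also changed sign with the offsets (-0.41). Among 7 tubulin cofactor genes, 2 rose in HCC-LM3, TBCD (0.76) and TBCB (0.29), and in Huh-7 3 rose, led by TBCB (1.89), and 3 fell, against 2 and 4 with library totals alone or the offsets. Among 11 genes for WD40-repeat clients, RPTOR (0.48) and FZR1 (0.46) rose in HCC-LM3 without a call under the offsets (0.17 and 0.18). In Huh-7 4 rose and 4 fell, with PPP2R2A (-1.91) and RPTOR (-1.75) among the latter. GNB4 averaged 7.11 CPM in wild-type and 1.68 in knockout Huh-7. In the other direction MLST8 averaged 124 and 406 CPM, and GNB2 426 and 1157. In Huh-7 7 of these 11 rose and 4 fell with DESeq2 size factors, 3 and 7 with library totals alone, and 6 and 3 with the offsets. Among 6 other clients, 3 rose, led by STAT3 (0.39), and the tumour suppressor VHL fell (-0.35) in HCC-LM3. In Huh-7 VHL (-1.96) and STAT3 (-1.09) fell, and 3 rose under TMM, led by HDAC3 (1.73), while with library totals alone 1 rose and 5 fell.

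Other cytosolic and mitochondrial chaperones were examined last. Of 20 genes of the heat shock factor, HSP70 and HSP90 system, 8 fell and 2 rose in HCC-LM3, and 15 fell and 4 rose in Huh-7. With GC and length offsets 10 fell in HCC-LM3 and 16 in Huh-7, and with library totals alone 13 and 19. Of all tested genes under TMM, HCC-LM3 had 12.9% called lower and 14.0% higher. For Huh-7 these shares were 43.2% and 31.7%. The share called lower with the offsets was 9.0% for HCC-LM3 and 28.3% for Huh-7. With library totals alone it was 20.7% and 65.3%, so most tested genes were called lower there in Huh-7 as well. The median log2 change of the 20 under TMM was -0.20 for HCC-LM3 and -1.29 for Huh-7, beside 0.00 and -0.30 over all tested genes. HSP90AA1 (-0.97 ± 0.14), HSPH1 (-0.92 ± 0.16) and the HSP90 cochaperone CHORDC1 (-0.81 ± 0.12) had the largest called changes of the list in HCC-LM3. In Huh-7 these were HSPA4 (-3.09 ± 0.14), HSPH1 (-2.82 ± 0.23) and CHORDC1 (-2.56 ± 0.21). All 4 genes fell in both lines and remained called with GC and length offsets. In the mitochondrial chaperonin system, HSPD1, which encodes the ring protein HSP60, fell in both lines, by log2 -0.74 ± 0.10 and -2.47 ± 0.11, with -0.53 and -1.78 under the offsets. HSPE1, its lid protein HSP10, fell in HCC-LM3 (-0.58 ± 0.12) and rose in Huh-7 under TMM (1.15 ± 0.12), where the value was -0.24 with the offsets. Among relatives of the CCT subunits that act in the ciliary BBSome pathway, 2 of 3 tested fell in HCC-LM3, 1 of them MKKS (-0.35, 0.00 with the offsets). In Huh-7 MKKS was at 0.11 and not called.

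Between the wild-type lines, where 6 TRiC genes were higher in HCC-LM3, 14 of the 20 heat shock, HSP70 and HSP90 genes were higher and 2 lower, beside 41.8% and 41.0% of all tested genes. With GC and length offsets 10 were higher and 2 lower. Among them were HSPA8 (log2 1.94 ± 0.11), CHORDC1 (1.75 ± 0.13) and DNAJA2 (1.60 ± 0.10). Prefoldin had 4 of 6 genes higher, VBP1 (1.61), PFDN4 (0.99), PFDN1 (0.74) and PFDN2 (0.52), and PFDN5 (-0.54) and PFDN6 (-0.28, 0.13 with library totals alone) lower. All 3 phosducin-like genes tested were higher, PDCL3 (2.26), TXNDC9 (1.57) and PDCL (0.95). Of the 12 tubulin genes 4 were higher, led by TUBA1A (4.60) and TUBA4A (2.53), and 8 lower, among them TUBB2B (-4.81).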

How the data were processed

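RNA was sequenced from 12 libraries of HCC-LM3 and Huh-7 cells, wild type and METTL5 knockout, 3 per group, with groups and replicate numbers taken from the sample titles. Per the labels' protocols, total RNA was extracted with TRIzol and sequenced on an Illumina NovaSeq. Per the file headers, the deposited table lists 58884 Ensembl genes, each with its expected count and TPM in every library. Expected counts were deposited without normalization, and the share with decimals ran from 7.49% to 13.3% by library. The deposited TPM add up to between 977632 and 998831. The submitters' processing notes name Bowtie 0.12.2 with mm9 and mm8, builds of the mouse genome. These do not go with human Ensembl identifiers, and the aligner, counter, strand setting and build are otherwise not given in the sources used here. Of the identifiers 99.54% matched GENCODE 29 (GRCh38), which gave coordinates, transcripts, coding windows and GC content.

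Counts were rounded and tested with edgeR 4.0.16 (R 4.3.3) by quasi-likelihood with TMM scaling and filterByExpr, over all 4 groups with 8 residual degrees of freedom. P-values were adjusted over 16537 genes at 0.05. CPM for plots and correlations uses a prior count of 2 on the log scale. Alternatives were DESeq2 1.42.0, limma 3.58.1 (voom, and log2 of TPM with a pseudocount of 1), DESeq2 size factors, library totals, other low-count filters (none, or 1 CPM in 3 libraries), GC and length offsets (spline with 5 degrees of freedom per library), a replicate block, 1 line fitted alone, and leaving out each library. Tables and plots used Python 3.11.15, pandas 2.3.3 and matplotlib 3.10.9. The procedure was tested on simulated data. Depth was 17495280 to 26415554 counts per library, and count floors cover counting error only. The subunit genes and the lists of related genes were chosen with earlier results of these data known. Besides the members, METTL5, CCT6B, prefoldin and neighbouring genes, the genes named were drawn from up to 3 called members per list with the largest change and a mean of at least 5 CPM, not all of which are printed.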

Additional observations from a re-analysis of the deposited data

Results flagged for a closer look

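For 6 subunits the knockout effect differed between the lines by the edgeR interaction test over all genes, given as the log2 change in HCC-LM3 minus that in Huh-7. The difference was 1.80 for TCP1, 1.57 for CCT8, 1.07 for CCT6A and 0.80 for CCT5, and it was -0.95 for CCT7 and -0.44 for CCT3. In the same test 61.6% of all genes differed. Only the differences of TCP1, CCT8 and CCT6A kept their sign and call in all 22 alternatives. Those of CCT3 and CCT7 changed sign with library totals alone and on the TPM scale, and that of CCT5 with GC and length offsets. The Huh-7 knockout libraries, with TMM factors of 0.491 to 0.510, enter every one of these differences, and their part in them was not tested.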

How the results depend on the processing

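In HCC-LM3 4 members were called, beside 26.8% of all tested genes. With GC and length offsets 2 were called, beside 9.5% of all tested genes higher and 9.0% lower, and 2 with the replicate block and these offsets. On the TPM scale 7 were called, but the share of all genes called on that scale is not given here. That count is therefore not read as a result about the members. Over all genes 4440 were called there, 2752 with the block and offsets, and 2743 to 6136 when 1 library was left out, with 2832 and 2743 without wild-type replicates 2 and 3. The ratio of the highest to the lowest subunit became 4.59, 6.10, 14.7 and 119 on counts per base of 1 fixed length in wild-type and knockout HCC-LM3 and wild-type and knockout Huh-7, an alternative chosen after seeing the data.

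Values called in at least 1 of the 2 settings compared turned sign 22 times. In Huh-7 CCT2 was 0.028 with DESeq2 size factors, 0.028 by the DESeq2 Wald test, 0.081 with offsets and 0.079 with block and offsets, and CCT5 was 0.14 in each of the last 2. With library totals and on the TPM scale CCT3 was -0.66 and -1.06, CCT4 -1.05 and -0.67, and CCT7 -0.18 and -0.68. In the interaction these 2 gave 0.52 and 0.90 for CCT3, 0.74 and 0.38 for CCT4, and 0.011 and 0.47 for CCT7, and CCT5 was -0.19 with offsets and -0.19 with block and offsets. Between wild types CCT7 was 0.23 and 0.47. The cause was not tested. Of the other values for single members, 656 kept their side of the threshold, 29 gained a call and 13 lost one. Among them 22 values called in neither setting turned sign, 8 of CCT3, 3 of CCT7 and 2 of CCT4 in HCC-LM3, 5 of CCT2 in the interaction, 2 of CCT4 in Huh-7 and 2 of CCT3 between wild types.

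Same-numbered libraries did not deviate together (correlations -0.11 to 0.08), so the numbers were not taken as pairs. With the replicate block alone 4261, 12281, 10048 and 13593 genes were called in HCC-LM3, Huh-7, the interaction and between wild types, and the counts of members called, 4, 7, 6 and 6, did not move. Depth limits CCT8 most, at 73 to 101 counts in knockout Huh-7.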
